A study of Mus musculus with 14 samples.

Results

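The genes described here are the solute carrier genes expressed in mouse oocytes, 121 of the 374 genes with an Slc symbol among 24064 genes counted. They were chosen by total counts: the symbol begins with Slc and a digit, and the counts summed over all 14 libraries reach 100. Because the counts chose the members, their levels are given as a description, and a total at the threshold favours genes that are high in any group. Of the other 253 Slc genes, 81 were listed at 0 in every library.

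The study concerns KDM1A, the histone demethylase also named LSD1, that the egg hands on to the early embryo, and RNA-seq was made on single oocytes as well as on embryos. The 4 wt/wt oocytes, wt1, wt3, wt4 and wt5, are labelled Lsd1/Kdm1a wt/wt of strain C57BL/6J. The 1 f/f oocyte, C3, is Lsd1/Kdm1a flox/flox of mixed B6;129 background, and carries a floxed allele but no deletion. The mutant oocytes number 5 (D1, D2, D3, D4, D7) and are Lsd1/Kdm1a mko/mko of the same mixed B6;129 background, in which a cre transgene under the Zp3 promoter, active only in oocytes, removes the first exon of Kdm1a during oocyte growth. The wt/wt and f/f oocytes together are the controls. Strain and genotype differ together between wt/wt and mutant oocytes and cannot be told apart there, and the only control of the mutant's background is 1 oocyte.

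Solute carriers are membrane proteins that move small molecules across the plasma membrane or the membranes of organelles, each family with its own kind of cargo. A growing oocyte takes up some amino acids, sugars and ions itself and receives others from the surrounding granulosa cells through gap junctions. Zinc is accumulated during meiotic maturation and is released from the egg at fertilisation, bicarbonate and proton exchangers set its pH, and mitochondrial carriers exchange ADP for ATP while the oocyte relies on pyruvate.

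The 10 oocytes had between 1375187 and 6928548 counts, and between 114 and 121 of the 121 members had a count in each. Levels are given as CPM, the counts divided by a library size that TMM has adjusted, and on this scale 3 counts stand for 0.456 to 1.83 CPM. Kdm1a had 70, 43, 85 and 27 counts in the wt/wt oocytes, 669 in C3 and 0, 2, 4, 3 and 10 in the mutant oocytes, which follows the labels, although the deleted first exon lies at the other end of the transcript from the 3′ end that was read and so the counts do not show the deletion itself. The scaling factors lay between 1.3 and 1.37 in wt/wt oocytes, stood at 0.651 in C3, and lay between 0.779 and 0.952 in mutant oocytes. Summed over 10 oocyte markers the level was 19622 to 34387 CPM among wt/wt, 56051 in the f/f and 47502 to 110677 among mutant oocytes, and 7 of the 10 were called higher in the mutants. Of 16 cumulus and granulosa cell markers, 8 were at 0 in every library, Fshr, Foxl2 and Amh among them, and the summed level was 20.6 to 79.6, 71.3 and 85.9 to 157 CPM in the same order. Cyp19a1 alone made up 8.52 to 53.1, 62.8 and 79.2 to 147 CPM of these sums. The part of these differences in the values below was not tested.

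Mutant oocytes were compared with controls by the quasi-likelihood test of edgeR over 9198 genes. Called means a Benjamini-Hochberg adjusted p below 0.05 and a log2 fold change of 1 or more in either direction, and each adjusted p below comes from this test. All 121 members passed the filter on low counts, as a total of 100 lies above it. Of these, 34 were called, 13 higher and 21 lower in the mutant oocytes. Over all genes tested 25.9% were called, 14.7% higher and 11.2% lower, so the called share of the members (28.1%) was near the background. The members were called lower more often than higher (10.7% higher, 17.4% lower), the other way round from the whole table. The median log2 fold change of the members was -0.10 and that of all genes tested 0.17. Of the 34 called members, 14 had under 100 counts in the group where they are lower. These are members only through the group where they are high, so their calls are a description. They are Slc23a3, Slc37a1, Slc37a4, Slc6a7, Slc12a1, Slc35b1, Slc35f3, Slc9a3r1 and Slc9a3r2, called higher, and Slc25a11, Slc2a13, Slc33a1, Slc35f6 and Slc35g1, called lower. In 22 members (18.2%) the control and mutant oocytes did not overlap, against 16.2% of all genes tested, with the mutant oocytes above in 7 and below in 15. The map of the called members shows these values oocyte by oocyte.

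**Figure D1:**
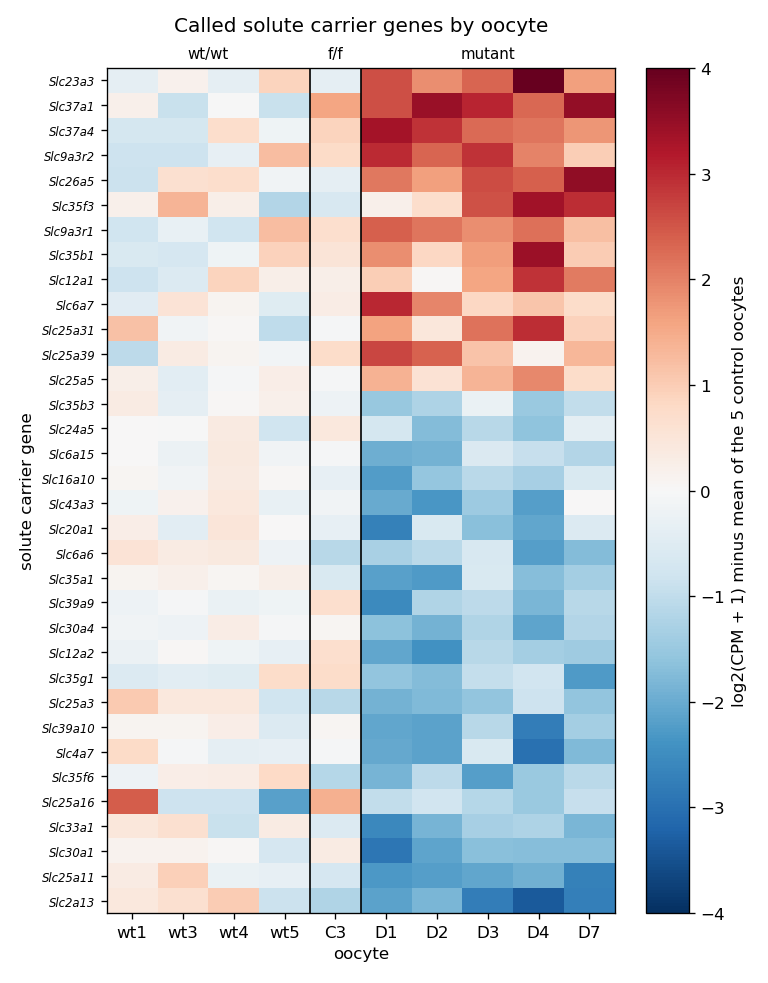
Each row is 1 of the 34 called solute carrier genes and each column 1 oocyte, and the colour is log2(CPM + 1) minus the mean of the 5 control oocytes, ordered by the fitted log2 fold change. The 13 higher genes stand at the top and the 21 lower genes at the bottom, and wt1 and C3 stand apart from the other control oocytes in Slc25a16.

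The split depended on the scaling and on the controls. With library totals alone, which moved the median of all genes by -0.39, 7 members were called higher and 33 lower. Slc25a5, Slc25a31, Slc6a7, Slc12a1, Slc35f3 and Slc9a3r1 were no longer called there. The share of higher calls then fell from 38.2% to 17.5% of called members and from 56.8% to 36.6% of called genes. Without C3 the counts were 20 higher and 24 lower. Against C3 alone, in a fit of 3 groups in which the single oocyte was assumed to vary like the others, edgeR's quasi-likelihood test called none of the 121 members, with 26 at an unadjusted p under 0.05, and it called 105 genes of the whole table. No other tool was run for that comparison. All 34 called members had the same sign of fold change against C3 alone, but C3 was among the controls that chose them.

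Of the 7 zinc carriers among the members, 4 were called lower in the mutant oocytes, beside 11.2% of all genes tested. Cells move zinc out of the cytosol with the Slc30 (ZnT) proteins and into it with the Slc39 (ZIP) proteins. Of 4 Slc30 members 2 fell, and of 3 Slc39 members 2 fell, with none called higher in either family. The 12 metal carriers as a whole had 4 called, the same 4, all lower, where 25.9% of all genes tested were called in either direction. Their median log2 fold change was -0.51 beside 0.17 over all genes tested. Against the f/f oocyte alone that median was -0.08. With DESeq2 or limma voom, 2 other tests of the same counts, 7 metal carriers were called, 2 higher and 5 lower. The counts were the same with every library as its own sample, where libraries that share an oocyte name are otherwise summed. That setting, here and in each use below, takes the 2 libraries of C3, D3, D4 and D7 as independent. Its p-values therefore do not measure the spread between oocytes alone. With library totals 6 were called, all lower, where 1668 of the 9198 genes tested were called lower. The shares of all genes called with DESeq2 or limma voom are not given here.

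Slc30a1 (ZnT1), the zinc exporter of the plasma membrane, lies at chromosome 1, 191906767 to 191913247, plus strand of GRCm38. Its level was 38.7, 38.4, 36.4 and 21.5 CPM in the wt/wt oocytes, 43.7 in C3 and 3.84, 7.31, 10.3, 10.04 and 9.97 in the mutant oocytes. No mutant oocyte reached the lowest control, with means of 8.3 ± 2.77 CPM (SD, n = 5) against 35.8 ± 8.4 (SD, n = 5), and Slc30a1 fell (log2 fold change -2.09, SE 0.41, adjusted p = 0.00253). Slc30a4 (ZnT4), which loads zinc into vesicles (chromosome 2, 122681233 to 122702663, minus strand), stood at 185, 178, 249 and 198 CPM in the wt/wt oocytes, 217 in C3 and 65.3, 54.2, 87.2, 46.4 and 90.7 in the mutant oocytes. Its groups did not overlap either, averaging 205 ± 28.6 CPM in controls against 68.8 ± 19.7 in mutants (SD, n = 5 each; log2 fold change -1.58, SE 0.32, adjusted p = 0.00312). The remaining 2 exporters, Slc30a3 and Slc30a5, overlapped between groups and were not called (log2 fold changes -0.20 and -0.29, adjusted p = 0.750 and 0.523).

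Slc39a10 (ZIP10), a zinc importer that the maturing oocyte uses together with Slc39a6 (ZIP6), was per kilobase the most abundant of the zinc carriers (chromosome 1, 46807544 to 46892852, minus strand). It had 876, 875, 961 and 546 CPM in the wt/wt oocytes, 848 in C3 and 192, 181, 375, 118 and 313 in the mutant oocytes. The highest mutant oocyte, D3, was below the lowest control, wt5, and the mean fell from 821 ± 159.6 to 236 ± 105 CPM (SD, n = 5 each; log2 fold change -1.80, SE 0.37, adjusted p = 0.00308). Slc39a9 (ZIP9), which lies at chromosome 12, 80643883 to 80683342, plus strand, stood at 43.1, 48.3, 41.7 and 44.9 CPM in the wt/wt oocytes, 80.8 in C3 and 7.68, 21.3, 23.5, 13.5 and 22.9 in the mutant oocytes. It was lower in all mutant oocytes (log2 fold change -1.54, SE 0.40, adjusted p = 0.0110), and C3 was the highest of all 10. Slc39a6, by contrast, was not called, with 26, 13.8, 26.2 and 39.9 CPM in the wt/wt oocytes, 7.33 in C3 and 30.7, 10.4, 24.6, 109 and 9.97 in the mutant oocytes. D4 stood far above the other mutant oocytes in it, and the groups overlapped (log2 fold change 0.73, SE 0.62, adjusted p = 0.406).

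Against the f/f oocyte alone the fold changes of the 4 called zinc carriers were -2.38 (Slc30a1), -1.66 (Slc30a4), -1.85 (Slc39a10) and -2.18 (Slc39a9) on the log2 scale, none of them called. Each of the 4 stayed called whichever oocyte was left out. Whether the counting used strand is not given in the sources used here: Slc39a9 overlaps the antisense gene Erh, Slc30a1 and Slc30a4 each overlap an antisense RNA, and Slc39a10 overlaps 2 other annotated transcripts on its own strand, so reads may be shared. In all, 69 of the 121 members overlap another annotated gene, among those named here also Slc31a1 (Cdc26) and Slc24a5 (Myef2).

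Of the other metal carriers, Slc31a1 (CTR1), the copper importer, had 4.42, 9.49, 13.5 and 8.07 CPM in the wt/wt oocytes, 15.5 in C3 and 24.1, 23.8, 26.4, 17 and 22.4 in the mutant oocytes. The mutant oocytes lay above all controls, the lowest, D4, at 17 CPM just above C3, but it missed the threshold (log2 fold change 1.14, SE 0.43, adjusted p = 0.0589). It was called higher without C3 (log2 fold change 1.37, adjusted p = 0.0278), with DESeq2 (0.0205), limma voom (0.0169) and filterByExpr, edgeR's own filter on low counts (0.0306), and with every library as its own sample (0.0309). Without C3 all controls are wt/wt oocytes of another strain. Slc31a1 was not called with library totals, upper-quartile scaling, no filter or 1 library per oocyte. Where settings are listed for a member that missed the threshold, here and below, the others did not call it, save wt/wt alone, the fit without C3. Slc11a2 (DMT1), which carries iron, had 39.8, 12.9, 11.4 and 17.9 CPM in the wt/wt oocytes, 16.4 in C3 and 45.5, 45.7, 33.8, 37.6 and 39.4 in the mutant oocytes and missed it as well (log2 fold change 1.04, SE 0.40, adjusted p = 0.0643). It was called higher without wt1, its highest control (1.45, adjusted p = 0.0184), with DESeq2 (0.0387) and limma voom (0.0172), and with every library as its own sample (0.0228, and 0.0437 with the labels' replicate number as a block). Slc41a2, a magnesium carrier, missed it on the other side, with 33.7, 13.4, 37.6 and 4.04 CPM in the wt/wt oocytes, 3.11 in C3 and 5.48, 0.609, 5.34, 7.6 and 3.49 in the mutant oocytes (log2 fold change -1.96, SE 0.72, adjusted p = 0.0530). It was called lower without C3 or wt5 (-2.22 and -2.20, adjusted p = 0.0163 and 0.0313) and in 6 other settings, DESeq2, limma voom, library totals, upper-quartile scaling, no filter and every library as its own sample (adjusted p = 0.0180 to 0.0497).

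**Figure D2:**
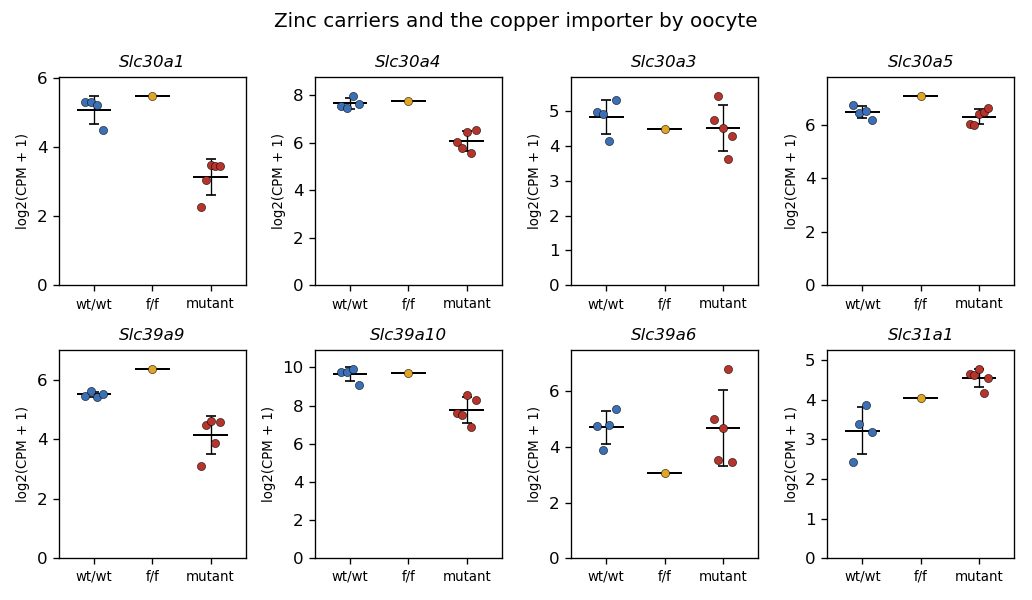
Points are single oocytes, with log2(CPM + 1) on the y axis and the group on the x axis, and bars give the group mean and SD (none for the single f/f oocyte). Slc30a1, Slc30a4, Slc39a9 and Slc39a10 are lower in all 5 mutant oocytes than in all 5 controls, while Slc30a3, Slc30a5 and Slc39a6 overlap and Slc31a1 lies higher.

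The zinc carriers are a set whose promoters can be read for the metal response core, the short element bound by the zinc sensor MTF1. Promoter windows from RefSeq (GRCm38.p6) were matched by symbol for 97 of the 121 members. The 250 bases before the start of the 4 called zinc carriers are shown 5′ to 3′ on the gene's strand, with matches to TGCACNC or TGCGCNC on either strand in capitals. Slc30a1 is chr1:191906531-191906780 (plus strand), Slc30a4 chr2:122702664-122702913 (minus), Slc39a9 chr12:80643965-80644214 (plus) and Slc39a10 chr1:46853619-46853868 (minus), the one of its 2 listed starts that lies within the annotated gene.
Slc30a1: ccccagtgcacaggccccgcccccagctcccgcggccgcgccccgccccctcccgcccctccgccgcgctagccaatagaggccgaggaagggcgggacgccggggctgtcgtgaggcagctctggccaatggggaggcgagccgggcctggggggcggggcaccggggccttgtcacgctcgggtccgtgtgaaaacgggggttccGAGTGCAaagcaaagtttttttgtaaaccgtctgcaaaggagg
Slc30a4: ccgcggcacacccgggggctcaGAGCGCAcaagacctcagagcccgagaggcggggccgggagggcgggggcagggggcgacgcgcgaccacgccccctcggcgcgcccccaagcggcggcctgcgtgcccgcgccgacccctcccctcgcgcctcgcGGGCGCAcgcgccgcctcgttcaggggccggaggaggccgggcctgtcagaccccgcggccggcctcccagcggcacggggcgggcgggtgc
Slc39a9: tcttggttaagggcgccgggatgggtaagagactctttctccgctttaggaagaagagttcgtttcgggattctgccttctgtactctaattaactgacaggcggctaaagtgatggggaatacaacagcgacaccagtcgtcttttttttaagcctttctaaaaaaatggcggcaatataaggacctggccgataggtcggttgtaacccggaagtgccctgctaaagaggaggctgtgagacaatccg
Slc39a10: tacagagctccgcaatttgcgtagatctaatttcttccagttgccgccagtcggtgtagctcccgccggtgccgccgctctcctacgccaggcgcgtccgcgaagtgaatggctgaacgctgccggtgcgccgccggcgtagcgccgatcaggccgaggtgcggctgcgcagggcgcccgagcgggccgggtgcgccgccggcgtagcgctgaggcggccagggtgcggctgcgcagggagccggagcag
The core occurred 1 time before Slc30a1, beginning 43 bases upstream of the start, and 2 times before Slc30a4, beginning 228 and 92 bases upstream. It was in neither of the windows of Slc39a9 and Slc39a10 printed, nor before the other listed start of Slc39a10. No match overlapped a GC box (GGGCGG), of which Slc30a1 had 5, Slc30a4 3 and the others none. Of all 32851 promoter windows of the same length, 21.4% hold the core and 32.7% a GC box. Of the 130 windows of the members, 31.5% and 59.2% do.

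Classes follow the Slc family number. Beside the calls in each class and list below, 14.7% of all genes tested were called higher and 11.2% lower. Among the 17 members of the amino acid carrier families, 1 was called higher and 3 lower, and the median log2 fold change was -0.68 beside 0.17 over all genes tested. The median was -0.21 against the f/f oocyte alone. Without wt1 or without D1 the calls fell to 2, both lower, and without C3 they rose to 6, of which 3 were higher. Slc6a15, which takes up branched-chain amino acids and proline, had 350.4, 296, 460.03 and 318 CPM in the wt/wt oocytes, 337 in C3 and 89.4, 92.6, 235, 184 and 153 in the mutant oocytes. All mutant oocytes were below all controls (log2 fold change -1.22, SE 0.35, adjusted p = 0.0176). Slc6a6, the taurine transporter, had 141, 121, 127 and 82.5 CPM in the wt/wt oocytes, 44.2 in C3 and 38.4, 45.1, 60.5, 19.9 and 27.9 in the mutant oocytes. Here C3 lay within the range of the mutant oocytes and only the wt/wt oocytes stood apart (log2 fold change -1.43, SE 0.41, adjusted p = 0.0177, and -0.21 against C3 alone). Slc43a3, of an amino acid carrier family though itself known as a carrier of purine nucleobases, also fell, from 133 ± 28.5 to 53.1 ± 45.8 CPM (SD, n = 5 each; log2 fold change -1.33, SE 0.45, adjusted p = 0.0392), with D7 at 134 CPM among the controls, and without D7 it fell by 1.97 on the log2 scale. The call was lost without wt1, wt3, wt4, D1, D2, D3 or D4 (adjusted p = 0.0592 to 0.0856).

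Slc6a7, the proline transporter known from the brain, was the 1 amino acid carrier called higher. Its level was 2.76, 6.47, 4.5 and 2.69 CPM in the wt/wt oocytes, 5.33 in C3 and 40.6, 18.9, 8.19, 10.2 and 7.48 in the mutant oocytes. The groups did not overlap, D7 lying just above wt3, and D1 was highest (log2 fold change 1.94, SE 0.57, adjusted p = 0.0214). The call was lost without D1 (log2 fold change 1.37, adjusted p = 0.0981) and without wt1 (1.82, adjusted p = 0.0505).

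The amino acid carriers that oocyte work usually turns to did not pass the test. Slc6a9 (GLYT1), which takes up glycine as an osmolyte in eggs, had 5.53, 18.6, 21.7 and 6.28 CPM in the wt/wt oocytes, 17.5 in C3 and 14.8, 11, 2.85, 3.8 and 12 in the mutant oocytes (adjusted p = 0.399). D3 and D4 were lowest, and the groups overlapped. Slc6a20b, of the imino acid transporters, averaged 11.1 ± 3.25 CPM in controls against 6.06 ± 2.21 in mutants (SD, n = 5 each; adjusted p = 0.191). The cationic amino acid carrier Slc7a1 gave 6.66 ± 2.58 and 13.1 ± 5.36 CPM (adjusted p = 0.156), the large neutral carrier Slc7a5 8.22 ± 6.08 and 3.36 ± 2.25 (0.173) and the glutamate carrier Slc1a1 4.48 ± 2.1 and 7.12 ± 2.77 (0.430), in the same order. No Slc7 carrier among the members was called with all oocytes. Slc7a2 was called lower without D2 or D7 (log2 fold changes -1.05 and -1.04, adjusted p = 0.0486 and 0.0465) and with library totals (-1.33, adjusted p = 0.0180), and with every library as its own sample Slc7a1 was called higher (1.08, adjusted p = 0.0495) and Slc7a14 lower (-1.93, adjusted p = 0.0348).

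Slc3a2 (CD98), the heavy chain that escorts Slc7 carriers to the surface, was by contrast abundant, with 229.9, 514, 379 and 271 CPM in the wt/wt oocytes, 488 in C3 and 597, 812, 524, 210.4 and 586 in the mutant oocytes. D4 was the lowest of all and D2 the highest, and the groups overlapped (log2 fold change 0.54, SE 0.38, adjusted p = 0.313). Slc7a11 (xCT), its cystine/glutamate partner, had 515, 397, 436 and 401 CPM in the wt/wt oocytes, 607 in C3 and 206, 212, 395, 278 and 453 in the mutant oocytes, also overlapping (adjusted p = 0.182).

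Mitochondrial carriers moved in both directions. Of 23 members of the Slc25 family, 3 were higher and 3 lower, with a median log2 fold change of 0.19. That median changed sign without D2 (-0.05), without D4 (-0.02) and with library totals (-0.25). The inner membrane exchangers of ADP for ATP are encoded by Slc25a4, Slc25a5 and, in the germ line, Slc25a31, which are close enough in sequence that counts of unique alignments may split unevenly among them. Slc25a5 (chromosome X, 36795651 to 36798807, plus strand) had 78.5, 49.2, 63.8 and 79.9 CPM in the wt/wt oocytes, 63.5 in C3 and 174, 98.7, 169, 253 and 111 in the mutant oocytes. Every mutant oocyte was above every control, D2 at 98.7 CPM being the lowest (log2 fold change 1.27, SE 0.35, adjusted p = 0.0147). Slc25a31 (chromosome 3, 40708855 to 40726096, plus strand) had 139.8, 54.8, 63 and 29.6 CPM in the wt/wt oocytes, 58.6 in C3 and 189.8, 84.7, 279, 479 and 116 in the mutant oocytes. It rose (log2 fold change 1.74, SE 0.50, adjusted p = 0.0185), though wt1 lay among the mutant oocytes, and without D4, the highest, the call was lost (1.29, adjusted p = 0.0555). With library totals both lost the call (log2 fold changes 0.82 for Slc25a5 and 1.30 for Slc25a31, adjusted p = 0.139 and 0.0631). Slc25a4 was scarce, with 4.42, 3.45, 3.68 and 6.73 CPM in the wt/wt oocytes, 3.55 in C3 and 1.1, 0, 2.85, 21.8 and 0.499 in the mutant oocytes, and D4 alone was high (log2 fold change 0.37, SE 0.89, adjusted p = 0.787).

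Slc25a39, which brings glutathione into mitochondria, was the third carrier of the family called higher, with 13.8, 37.5, 31.9 and 27.4 CPM in the wt/wt oocytes, 50.6 in C3 and 195, 155, 66.2, 32.5 and 75.8 in the mutant oocytes. D1 and D2 were highest and D4 lay below C3 (log2 fold change 1.69, SE 0.48, adjusted p = 0.0177), and without D1 it missed the threshold (adjusted p = 0.0585).

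Among those that fell, Slc25a11, which exchanges oxoglutarate for malate (chromosome 11, 70644196 to 70647479, minus strand), had 15.5, 24.2, 9.81 and 9.42 CPM in the wt/wt oocytes, 7.33 in C3 and 1.65, 1.83, 2.14, 2.43 and 0.997 in the mutant oocytes. All mutant oocytes were below all controls, at 3, 3, 6, 16 and 2 counts (log2 fold change -2.80, SE 0.56, adjusted p = 0.00261). The gene overlaps Rnf167 on the other strand. Slc25a3, the mitochondrial phosphate carrier, had 56.9, 36.7, 37.2 and 15.3 CPM in the wt/wt oocytes, 12.2 in C3 and 6.58, 7.31, 8.55, 14.9 and 8.48 in the mutant oocytes. Only C3 among the controls fell within the range of the mutant oocytes (log2 fold change -1.76, SE 0.48, adjusted p = 0.0154), and without wt1, the highest, the call was just lost (adjusted p = 0.0512). Slc25a16 was high in wt1 (119 CPM) and C3 (59.1 CPM), while the other controls, at 4.04 to 11.9 CPM, overlapped the mutant oocytes (log2 fold change -2.05, SE 0.70, adjusted p = 0.0403). Without wt1 its log2 fold change was -1.14, and the call was lost without wt1, C3, D1, D2, D3, D4 or D7 (adjusted p = 0.0605 to 0.207). The peroxisomal carrier Slc25a17 was one of the 8 most abundant members, with 224, 249, 236 and 201 CPM in the wt/wt oocytes, 63.3 in C3 and 124, 119, 181, 269 and 175 in the mutant oocytes. C3 was the lowest of the 10, and it was not called (adjusted p = 0.783).

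Carriers of the endoplasmic reticulum and Golgi, which bring nucleotide sugars and other substrates to the lumen, numbered 19, of which 4 were higher and 5 lower (median log2 fold change -0.02, and 0.35 without C3 or -0.36 without D7). The 2 glucose-6-phosphate carriers rose from a few counts per oocyte. Slc37a1 (chromosome 17, 31286792 to 31350739, plus strand) had 2, 0, 2 and 0 counts in the wt/wt oocytes, 20 in C3 and 18, 31, 40, 53 and 40 in the mutant oocytes, or 1.11, 0, 0.818 and 0 CPM in the wt/wt oocytes, 4.44 in C3 and 9.87, 18.9, 14.2, 8.06 and 19.9 in the mutant oocytes. All mutant oocytes lay above all controls (log2 fold change 3.27, SE 0.80, adjusted p = 0.00842), and the log2 fold change was 4.82 without C3 and 1.66 against C3 alone. Slc37a4, the transporter of the glucose-6-phosphatase system (chromosome 9, 44396852 to 44402968, plus strand), had 0, 0, 4 and 1 counts in the wt/wt oocytes, 9 in C3 and 28, 18, 19, 41 and 9 in the mutant oocytes. In CPM its levels were 0, 0, 1.64 and 0.449, then 2.0, then 15.4, 11, 6.77, 6.24 and 4.49, in the same order. It too was separate between groups (log2 fold change 3.20, SE 0.80, adjusted p = 0.00956, and 3.91 without C3). Slc37a3, the third member of the family, was not called (adjusted p = 0.572).

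Slc35a1, which supplies CMP-sialic acid to the Golgi (chromosome 4, 34663257 to 34687438, minus strand), had 138, 148, 136 and 153 CPM in the wt/wt oocytes, 84.6 in C3 and 28, 26.2, 84.4, 38.8 and 49.9 in the mutant oocytes. The wt/wt oocytes kept within a narrow range, C3 lay far below them, and D3 almost reached C3 (log2 fold change -1.53, SE 0.38, adjusted p = 0.00928). Slc33a1, which brings acetyl-CoA into the endoplasmic reticulum, fell from 12.5 ± 5.59 to 2.84 ± 1.27 CPM (SD, n = 5 each; log2 fold change -2.07, SE 0.56, adjusted p = 0.0136) with no overlap. Slc35g1 also had no overlap (log2 fold change -1.73, SE 0.59, adjusted p = 0.0398) and lost the call without wt5, C3, D1, D2, D3 or D7 (adjusted p = 0.0505 to 0.0882). Slc35f6 and Slc35b3, the latter a carrier of the sulfate donor PAPS, fell with overlap (adjusted p = 0.0265 and 0.0399). Slc35f6 lost the call without wt3, wt4, wt5, D1 or D3 (adjusted p = 0.0511 to 0.0664) and Slc35b3 without wt1, wt4, wt5, D1, D2, D4 or D7 (adjusted p = 0.0672 to 0.0978). Slc35b1, an ATP/ADP exchanger of the endoplasmic reticulum, had 2.76, 2.59, 4.09 and 9.87 CPM in the wt/wt oocytes, 7.1 in C3 and 19.7, 9.14, 17.1, 59.6 and 10.5 in the mutant oocytes, and rose (log2 fold change 2.13, SE 0.60, adjusted p = 0.0168). D4 was far above the rest, and without it the call was lost (1.41, adjusted p = 0.0711). Slc35f3 rose as well (log2 fold change 2.52, SE 0.76, adjusted p = 0.0236), with D1 and D2 at 2.74 and 4.26 CPM below the highest control, and lost the call without D4 (adjusted p = 0.0632), and its log2 fold change was 3.19 without wt3.

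**Figure D3:**
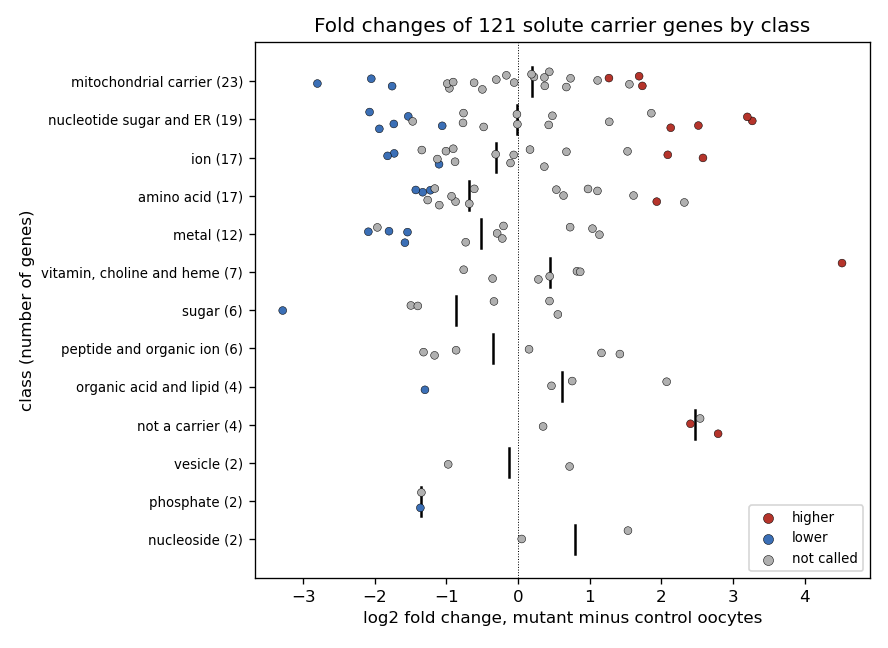
Each point is 1 of the 121 members, placed by its fitted log2 fold change of mutant minus control oocytes on the x axis and by class on the y axis, with the class size in brackets and the class median as a bar. The 4 called metal carriers all lie on the left, while mitochondrial and endoplasmic reticulum carriers have called members on both sides.

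Ion carriers had 2 members higher and 3 lower of 17 (median log2 fold change -0.31). The median was -0.10 without D4, -0.16 without D3, -0.47 without D2, -0.52 without wt1 and -0.79 with library totals or filterByExpr. Slc4a7 (NBCn1), which brings in sodium and bicarbonate (chromosome 14, 14702279 to 14799940, plus strand), had 80.1, 44.4, 36 and 36.8 CPM in the wt/wt oocytes, 45.1 in C3 and 10.4, 9.75, 30.3, 5.02 and 13 in the mutant oocytes. Every mutant oocyte was below every control, and D3 came nearest (log2 fold change -1.82, SE 0.47, adjusted p = 0.0115). Slc12a2 (NKCC1), the sodium, potassium and chloride cotransporter, had 28.2, 35, 29.9 and 26.5 CPM in the wt/wt oocytes, 54.2 in C3 and 7.13, 5.48, 15, 12.3 and 12 in the mutant oocytes. The groups were separate and C3 was the highest (log2 fold change -1.73, SE 0.42, adjusted p = 0.00769). Slc24a5, a potassium-dependent sodium/calcium exchanger known from melanosomes, fell by 1.10 on the log2 scale (SE 0.37, adjusted p = 0.0384), with D1 and D7 inside the control range, and lost the call without wt1, wt3, wt4, C3, D2, D3 or D4 (adjusted p = 0.0544 to 0.0863).

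Slc26a5 (prestin), the motor protein of outer hair cells, rose (chromosome 5, 21810655 to 21865604, minus strand). It had 4.97, 16, 16.8 and 8.97 CPM in the wt/wt oocytes, 7.55 in C3 and 46.1, 32.9, 64.8, 56 and 126 in the mutant oocytes. D2, the lowest mutant oocyte, was above the highest control, wt4 (log2 fold change 2.58, SE 0.47, adjusted p = 0.00151). Slc12a1 (NKCC2), the kidney form of the cotransporter, also rose (log2 fold change 2.09, SE 0.70, adjusted p = 0.0376) from 1.99 ± 1.4 to 8.59 ± 6.72 CPM (SD, n = 5 each), with overlap, and lost the call without wt1, wt3, wt5, D3, D4 or D7 (adjusted p = 0.0507 to 0.131).

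Sugar, organic acid, phosphate and vitamin carriers included the most abundant member and the members with the largest fitted change in each direction. Slc2a13 (HMIT), which takes up myo-inositol with protons (chromosome 15, 91267696 to 91573261, minus strand), had 21, 24.6, 32.3 and 8.07 CPM in the wt/wt oocytes, 6.22 in C3 and 2.74, 3.66, 1.42, 0.608 and 1.5 in the mutant oocytes. The mutant oocytes held 5, 6, 4, 4 and 3 counts and lay below all controls (log2 fold change -3.28, SE 0.65, adjusted p = 0.00257), and against C3 alone the log2 fold change was -1.74. Slc16a10 (TAT1), which carries aromatic amino acids and thyroid hormone but belongs to the family of monocarboxylate carriers (chromosome 10, 40033532 to 40142258, minus strand), had 280.2, 237, 337 and 270.1 CPM in the wt/wt oocytes, 208 in C3 and 55.4, 88.3, 123, 103 and 171 in the mutant oocytes. The groups were separate, with D7 nearest to C3 (log2 fold change -1.30, SE 0.35, adjusted p = 0.0135). Slc20a1 (PiT1), a phosphate importer, fell from 79.6 ± 21.7 to 31.1 ± 19.4 CPM (SD, n = 5 each; log2 fold change -1.36, SE 0.44, adjusted p = 0.0317) with no overlap. It lost the call without wt1, wt4, D1, D3 or D4 (adjusted p = 0.0648 to 0.0769).

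Slc2a1 (GLUT1), the glucose carrier, had 4.42, 14.7, 16.8 and 4.93 CPM in the wt/wt oocytes, 18.4 in C3 and 7.68, 3.05, 3.56, 2.59 and 4.49 in the mutant oocytes. Its groups overlapped and it missed the threshold (log2 fold change -1.50, SE 0.57, adjusted p = 0.0618). It was called lower without wt1 or wt5 (adjusted p = 0.0471 and 0.0462), with DESeq2 (0.0346), with library totals (0.0258) and with every library as its own sample (0.00895). Slc16a1 (MCT1), which carries pyruvate and lactate, had 4.97, 1.29, 4.5 and 0 CPM in the wt/wt oocytes, 16.9 in C3 and 7.13, 7.92, 8.19, 7.76 and 8.48 in the mutant oocytes. The wt/wt oocytes lay below all others, C3 included (adjusted p = 0.679).

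Slc23a3, an orphan relative of the vitamin C transporters (chromosome 1, 75125541 to 75133890, minus strand), had 0, 1, 0 and 3 counts in the wt/wt oocytes, 0 in C3 and 12, 6, 15, 149 and 6 in the mutant oocytes. No control oocyte passed 3 counts and every mutant oocyte did, and it was called (adjusted p = 0.00482). Pooled over oocytes, 188 counts stood against 4, a ratio of levels of 42.1 with an exact 95% interval of 16.2 to 156 that covers counting error only. D4 held 149 of the 188, and without D4 the ratio and its interval were 15.7 (5.65 to 60.4) and the call stood (adjusted p = 0.0209). Without wt5, which held 3 of the 4 control counts, they were 140.2 (24.9 to 5567). The vitamin C transporters proper were not called with all oocytes. Slc23a2, the second most abundant member per kilobase over all 10 oocytes, had 978, 399.6, 743 and 281 CPM in the wt/wt oocytes, 908 in C3 and 477, 472, 721, 342 and 577 in the mutant oocytes (adjusted p = 0.519), and wt/wt oocytes were both the highest and the lowest. Slc23a1 had 6.08, 6.9, 5.72 and 13.9 CPM in the wt/wt oocytes, 175 in C3 and 18.1, 155, 21, 21.9 and 72.3 in the mutant oocytes (log2 fold change 0.44, adjusted p = 0.743), the wt/wt oocytes below all others and C3 and D2 far above. It was called higher without C3 (2.82, adjusted p = 0.00565) and with limma voom (2.18, adjusted p = 0.0215).

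**Figure D4:**
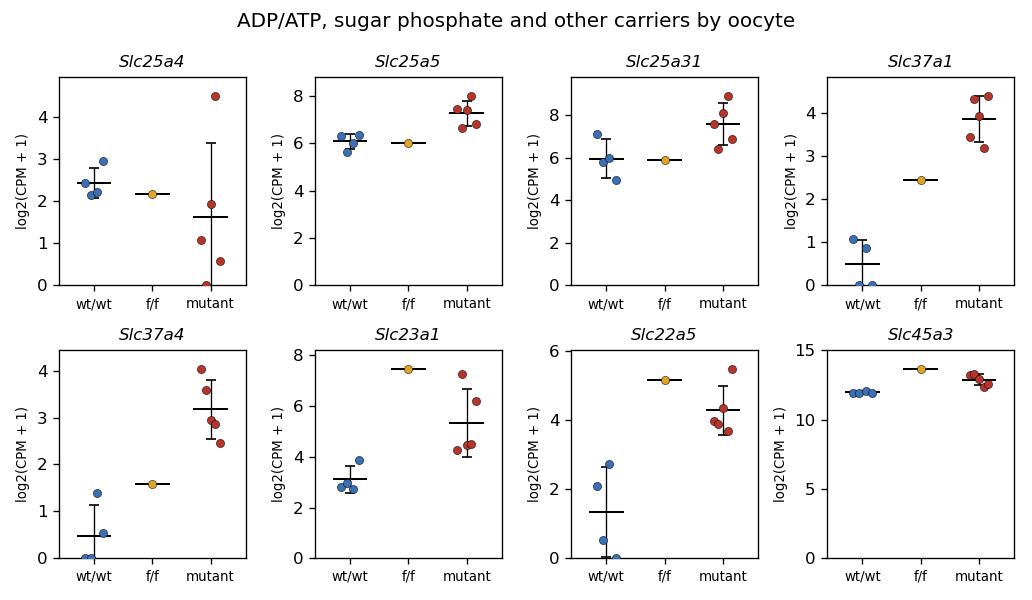
Points are single oocytes, with log2(CPM + 1) on the y axis and the group on the x axis, and bars give the group mean and SD (none for the single f/f oocyte). Slc25a5, Slc37a1 and Slc37a4 are higher in all mutant oocytes, while in Slc23a1, Slc22a5 and Slc45a3 the f/f oocyte sits among or above the mutant oocytes and the wt/wt oocytes are lowest, which with library totals holds for Slc22a5 and not for Slc23a1 and Slc45a3.

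The f/f oocyte did not always side with the wt/wt oocytes. In 11 members (9.09%) every wt/wt oocyte lay below C3 and all mutant oocytes, and in 13 members (10.7%) above them, against 8.52% and 7.61% of all genes tested. This rests on the TMM scaling: with library totals it was so in 3 and 35 members, Slc22a5, Slc36a1 and Slc37a1 staying among those where wt/wt oocytes were lowest and all 13 among those where they were highest. The shares of all genes with library totals were not taken, and that scaling moved the median of all genes by -0.39. The counts of 3 and 35 are therefore not a result about the members. The 11 included Slc45a3, Slc23a1, Slc16a1, Slc37a1, Slc37a4 and Slc31a1, and also Slc22a5, the carnitine transporter, with 3.32, 0.432, 5.72 and 0 CPM in the wt/wt oocytes, 35.1 in C3 and 14.8, 14, 19.6, 12 and 43.9 in the mutant oocytes. In Slc36a1, a proton-coupled amino acid carrier of lysosomes, the levels were 1.11, 0.432, 2.86 and 0 CPM in the wt/wt oocytes, 15.1 in C3 and 16.5, 12.8, 13.2, 11.3 and 10.5 in the mutant oocytes. Both were far lower in each wt/wt oocyte than in C3, and neither was called between mutant and control oocytes with all oocytes (log2 fold changes 1.17 and 1.61, adjusted p = 0.345 and 0.153). Without C3 both were called higher (3.12 and 3.5, adjusted p = 0.00719 and 0.00249), as they were with limma voom, which weights the oocytes (3.22 and 3.35, adjusted p = 0.00393 and 0.00110). The 13 included Slc6a6, Slc25a3, Slc25a11, Slc35a1, Slc16a10 and Slc2a13, all called lower. Among the 34 called members, C3 lay within the wt/wt range but outside the mutant range in 17, within the mutant range alone in 4, within both in 2, between the ranges in 6 and above all other oocytes in 5. No test of these differences between control oocytes is given. They rest on 1 f/f oocyte, and strain and the floxed allele cannot be told apart in them.

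Slc45a3, a sugar carrier first described in prostate, set the level of the whole group. It had 3971, 3814, 4297 and 3924 CPM in the wt/wt oocytes, 12788 in C3 and 9664, 10177, 7795, 5207 and 6220 in the mutant oocytes, from 35.9% of the members' summed level in wt1 to 67.0% in D1. The wt/wt oocytes lay within a narrow range, below all others, and C3 was the highest, and it was not called (log2 fold change 0.44, SE 0.43, adjusted p = 0.468). As a share of all counts, with no TMM factor, it was 0.508% to 0.555% in wt/wt oocytes, 0.831% in C3 and 0.494% to 0.828% in mutant oocytes, D4 then being the lowest of all 10. Without Slc45a3 the summed level of the members was 5391 to 7163 CPM in wt/wt oocytes, 7850 in C3 and 4594 to 5568 in mutant oocytes.

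Levels of different genes were compared per kilobase of transcript, counting at most 3 kb since the cDNA reaches that far from the 3′ end. The mean over 10 oocytes was 2262 ± 1059 CPM per kb (SD, n = 10) for Slc45a3, whose lowest oocyte was above the highest value of the next member. Slc23a2 (197 ± 79.5), Slc3a2 (164 ± 67.5), Slc39a10 (176 ± 111), Slc7a11 (129.97 ± 42.6), Slc25a17 (107 ± 38), Slc25a5 (92 ± 52.4) and Slc6a15 (83.8 ± 40.5 CPM per kb) followed, ordered by their mean on the log2 scale over all 10 oocytes. These 7 overlapped with their neighbours in the order, as did every later pair. The order differed by group, as mean levels in wt/wt and mutant oocytes were 271 against 78.6 CPM per kb for Slc39a10, 54.7 against 130.02 for Slc25a5, 119 against 50.2 for Slc6a15 and 124 against 194 for Slc3a2. By these means Slc16a10 was among the 8 highest in wt/wt oocytes in place of Slc25a5, and Slc25a31 in mutant oocytes in place of Slc6a15. The median member had 5.99 CPM per kb and the lowest 0.936.

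**Figure D5:**
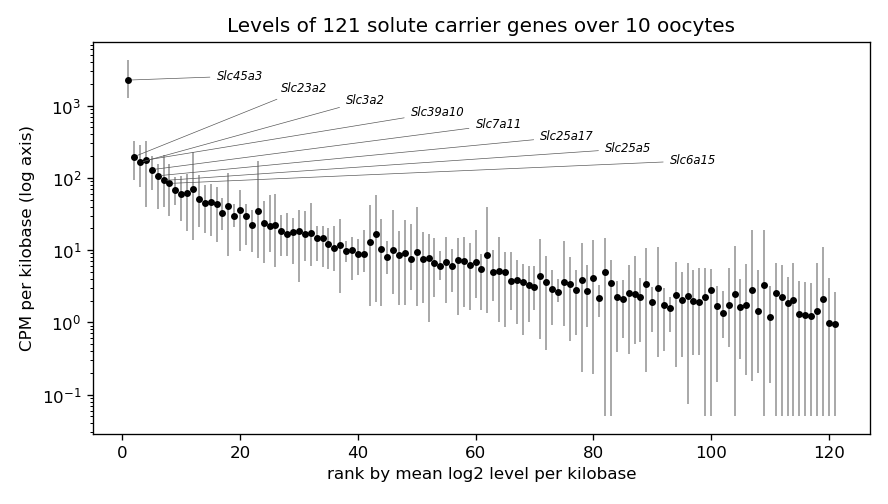
The level of each of the 121 members in CPM per kilobase (log axis) is plotted against its rank by mean log2 level, with the mean over 10 oocytes as a point and the lowest to highest oocyte as a line, values under 0.05 being drawn at 0.05. Slc45a3 stands alone at the top and the lines of all later neighbours overlap.

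The threshold itself cut through a continuous range. The 3 members just inside were Slc35a3, Slc35f5 and Slc38a9, with totals of 100, 102 and 103 counts. Their means were 3.59 ± 1.83, 5.79 ± 5.25 and 0.864 ± 1.24 CPM in control oocytes and 3.6 ± 3.3, 1.99 ± 1.34 and 4.75 ± 3.08 in mutant oocytes (SD, n = 5 each). Just outside were Slc25a35, Slc5a3 and Slc10a6, with 99, 98 and 90 counts. Their means were 0.199 ± 0.276, 6.24 ± 4.17 and 0.536 ± 0.347 CPM in control oocytes and 5.97 ± 4.7, 0.705 ± 0.442 and 6.18 ± 7.09 in mutant oocytes (SD, n = 5 each). Of the 46 Slc genes under the total that were tested, 12 were called, near the share over all genes tested (25.9%). Of the 31 carriers fixed as a list for their known use in oocytes, 16 were members and 18 were tested. Slc25a5 rose, Slc39a10, Slc4a7 and Slc25a3 fell, and 14 did not pass the test. The median log2 fold change over all 18 tested was -0.13. Slc38a1, Slc38a2, Slc38a3, Slc26a6 and Slc8a1 were listed at 0 in every library, and 10 others of the list had between 1 and 54 counts in all.

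Of the members, 4 bear an Slc symbol without being carriers. The scaffold proteins Slc9a3r1 and Slc9a3r2 (NHERF1 and NHERF2), which anchor proton exchangers at the membrane, rose with overlap, from 0, 1, 0, 7 and 8 counts in wt1, wt3, wt4, wt5 and C3 to 15, 11, 15, 47 and 6 in the mutant oocytes for Slc9a3r1 (log2 fold change 2.41, SE 0.84, adjusted p = 0.0438) and from 0, 0, 1, 7 and 9 to 24, 13, 34, 40 and 5 for Slc9a3r2 (log2 fold change 2.79, SE 0.85, adjusted p = 0.0244). The calls were lost without wt1, wt3, wt4, D1, D2, D3 or D4 (adjusted p = 0.0653 to 0.0996) for Slc9a3r1 and without wt4, D1 or D3 (adjusted p = 0.0531 to 0.0657) for Slc9a3r2, and without wt5 the log2 fold changes were 3.16 and 3.48. Slc7a6os and Slc4a1ap were not called (adjusted p = 0.518 and 0.0632). Slc4a1ap (log2 fold change 2.54) was called higher without D3 or D7 (2.82 and 2.81, adjusted p = 0.0387 and 0.0369), with DESeq2 (0.0271), with no filter (0.0168) and with every library as its own sample (0.0421). D4 held 347 of its 401 counts, at 52.8 CPM beside 0.712 to 8.23 in the other mutant oocytes and 0.432 to 4.09 in controls. Slc4a1ap was not called without D4. Among 45 carriers known by other symbols, none a member, 20 were tested, of which 3 rose and 1 fell. Mpc1, a subunit of the mitochondrial pyruvate carrier, rose (log2 fold change 1.17, SE 0.33, adjusted p = 0.0172), as did Mfsd2a (2.96, adjusted p = 0.0213) and Slco1a4 (2.22, adjusted p = 0.0366), and Xpr1, the phosphate exporter, fell (log2 fold change -1.40, SE 0.35, adjusted p = 0.00981). Of 12 genes for partners of carriers or for the pumps that drive them, 8 were tested and 3 rose. These were Atp1b1, a subunit of the sodium pump (log2 fold change 1.08, SE 0.32, adjusted p = 0.0210), Atp6v1a of the vacuolar proton pump (log2 fold change 1.65, SE 0.44, adjusted p = 0.0129) and Emb, an escort of monocarboxylate carriers (log2 fold change 1.21, SE 0.39, adjusted p = 0.0320). In Emb and Slco1a4 the wt/wt oocytes lay below all others and C3 within the range of the mutant oocytes.

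The members varied between oocytes of a group about as much as other genes. The median SD of log2 CPM over wt/wt oocytes was 0.62 both for the members and for all genes tested, and over mutant oocytes 0.67 and 0.72. The 2 libraries that share an oocyte name differed by a median of 0.24 (D4) to 0.54 (C3) log2 units over the members, against 0.27 and 0.44 over all genes in the same oocytes.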

How the data were processed

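RNA-seq was made on single oocytes by amplifying poly(A) cDNA, which reaches at most 3 kb upstream of the tail. The authors aligned filtered single-end reads to mm10 with TopHat2 2.0.6, kept unique best alignments and deposited raw read counts per RefSeq gene for 14 libraries, made with HTSeq. The submitters' processing notes name HTSeq 0.5.3p9 and DESeq2 1.4.5, while the paper names other versions. All columns were used. Libraries sharing an oocyte name (C3, D3, D4, D7) were summed, giving 10 oocytes, since they correlated better with each other (Spearman 0.916 to 0.961) than with other oocytes (0.893 at most). The labels number them as separate oocytes. Nothing says which oocytes share a female, so p-values measure the spread between these oocytes.

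Genes without a count were dropped and the top 60% by total kept (9198 of 15432). The main test was edgeR 4.0.16 in R 4.3.3 (TMM, glmQLFit, glmQLFTest, genotype as the one term), checked on simulated data. Log2 CPM used a prior count of 2. Promoters came from RefSeq (GRCm38.p6), and coordinates and lengths from GENCODE M21 (GRCm38, which is mm10), matched by symbol for 121 members. Of the members, 69 overlap another annotated gene.

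The genes named were the 10 higher and 10 lower called members of smallest p whose groups did not overlap (6 higher met this), the 8 highest per kb, the members of a list of oocyte carriers, 3 genes on each side of the count threshold, and Kdm1a. The further called or separate members that are named were picked with their values in view. The members and lists were chosen with earlier results of these data known. Alternatives were DESeq2 1.42.0, limma 3.58.1 (voom with quality weights), library totals, upper-quartile scaling, no filter, filterByExpr, an adjusted p alone, other treatments of the libraries, wt/wt or f/f oocytes alone as control, and each oocyte left out. The order of wt/wt oocytes against all others with library totals was added after seeing the data. Embryo libraries were not analysed here. The values of 1 member that the naming rule covers are not reported here.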

Additional observations from a re-analysis of the deposited data

Results flagged for a closer look

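In 13 of 74 sets (37 named members in control and in mutant oocytes, 5 oocytes each), 1 oocyte stood further from its neighbour than Dixon's critical value of 0.71 of the range. About 1 in 20 sets, or 3.7, would pass it if each were 5 draws from 1 normal distribution. CPM need not be normal, and the control sets mix wt/wt oocytes with C3, so the 13 are not read as an excess over chance. C3 accounts for 5 of them, D4 for 4, and wt1, wt3, wt5 and D7 for 1 each. Among the controls C3 was the high oocyte in Slc45a3 (12788 CPM), Slc39a9 (80.8) and Slc37a1 (4.44) and the low one in Slc35a1 (84.6) and Slc25a17 (63.3). The wt/wt oocyte wt5 was low in Slc39a10 (546 CPM), wt1 high in Slc4a7 (80.1) and wt3 low in Slc35a3 (0.432). Among the mutants D4 was high in Slc39a6 (109 CPM), Slc23a3 (22.7), Slc25a4 (21.8) and Slc25a3 (14.9), and D7 was high in Slc35a3 (9.47). C3 and D4 had the largest total counts of their groups.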

How the results depend on the processing

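The counts of members called higher (13) and lower (21) stayed within 1.5 times under DESeq2, upper-quartile scaling, no filter, an adjusted p alone and 1 library per oocyte. The higher count moved to 23 with limma voom, 8 with filterByExpr, 21 with every library as its own sample, and 20 with wt/wt oocytes alone. Library totals gave 7 higher and 33 lower, and the f/f oocyte alone 0 and 0. With each oocyte left out in turn, 9 to 20 were higher and 15 to 24 lower, and 18 of the 34 called members kept their call in each of these fits. The replicate numbers do not pair oocytes (correlations of deviations -0.13 to 0.09). With every library as its own sample and the number as a replicate block, 8 members were higher and 6 lower, 12 of the 34 staying called, and genes called fell from 2885 to 966. The cause of these moves was not tested, save that a single f/f oocyte leaves 1 control. Outside the f/f fit and these left-out fits, 11 of the 34 held their call in all other settings in which they were tested. No named member reversed a call. The median log2 level per kb, 2.28, was 1.65 over whole transcript lengths, which are longer, 2.28 with library totals and 2.17 with 1 library per oocyte. Of the 8 highest members, 7 stayed among the 8 over whole lengths and 8 in the other settings. Depth limits low members: 14 of the 34 called members had under 100 counts in one group.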
